A study of Mus musculus with 12 samples.

Results

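The 4 wild-type embryos are 4 of the 12 whole mouse embryos whose RNA was sequenced in a study of Mfsd12, and they were chosen because their column of the deposited count table carries the wild-type label. The other 8 embryos, 4 heterozygous and 4 knockout for Mfsd12, are used here only where a difference from them was tested or their values are set beside those of the wild-type embryos. All 12 came from timed matings in which both parents carried 1 disrupted copy of the gene, so wild-type and mutant embryos come from the same kind of litters. They were collected between 10.0 and 11.0 days after fertilization, and the labels give no stage, litter, sex or collection day for a single embryo. Total RNA was prepared with TRIZOL from each whole embryo, and 325 ng of it went into a strand-marking mRNA library to which ERCC spike-in RNA was added. The titles number the embryos by a first number without a stated meaning: wild-type 1 and wild-type 2 carry the number 18, and wild-type 3 and wild-type 4 carry the number 4. Mfsd12 encodes a transporter in the membrane of lysosomes and pigment granules.

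At this age the mouse embryo has a beating heart, a closed neural tube, growing limb buds and a liver that is starting to form. Its circulation is filled with primitive red cells made in the yolk sac, which carry embryonic globin chains. The red cell list used here holds adult alpha and beta globin genes as well, so adult globin RNA is not assigned to a separate red cell type. Levels are given as TPM, the count of a gene divided by the gene's length and scaled so that each embryo sums to 1000000. A TPM is therefore a share of the embryo's measured RNA, and in a whole embryo fewer cells of a type and less RNA per cell of that type cannot be told apart.

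The wild-type embryos held 54633324 to 66715710 counted reads, within the range of 53133084 to 67977990 of all 12, and no pair of them agreed within sampling noise. Wild-type 1 held more globin RNA than the others, and its median gene lay low: on the log2 scale it differed by -0.52 from the mean of the other 3 embryos. The median gene differed by 0.025 in wild-type 2 and by 0.25 in wild-type 3 and in wild-type 4. With globin genes taken out of the total, the shift of wild-type 1 was -0.30, and those of the others were -0.020, 0.17 and 0.15. Directions between embryos are therefore taken from a test on counts with TMM scaling, which sets the bulk of genes equal, and not from TPM.

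A few genes made up much of the embryo's RNA. In wild-type 1, 108 genes held 50% of the TPM, compared with 283 in wild-type 2, 395 in wild-type 3 and 414 in wild-type 4. The 20 most abundant genes of an embryo took 32.9%, 20.96%, 18.8% and 16.9% of its TPM in the same order. At the other end, 14034 of the 41079 genes in the table reached 1 TPM in every wild-type embryo, and 11258 genes (27.4%) had no count in any of them. Genes shorter than 200 bases, among them microRNA hairpins inside longer transcripts, held 4.13% to 5.12% of TPM. Division by a small length lifts their TPM, and Mir682 was listed at 11699, 10509, 7142 and 7768 TPM in wild-type 1 to 4. Mir675, which lies within H19, was listed at 5152 ± 1188 TPM (SD, n = 4). The rankings below use genes of at least 200 bases.

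Globin genes were the most abundant family in each wild-type embryo. Hbb-y, the main embryonic beta-like globin, stood at 97092, 42261, 38175 and 27885 TPM in wild-type 1 to 4. Hba-x, the embryonic alpha-like chain, followed with 49292, 23880, 20032 and 17203 TPM. Hbb-bh1, a second embryonic beta-like chain, measured 38454, 15119, 15506 and 18937 TPM. Wild-type 1 was the highest of the 4 for all of these, and the other embryos lay close together. The adult alpha chains were already abundant, with Hba-a1 at 28561, 12341, 6251 and 5458 TPM and Hba-a2 at 21275, 7697, 3758 and 3742 TPM. Both were higher in the 2 embryos of title number 18 than in the 2 of title number 4. Their sequences are nearly identical, so reads were divided between them by the authors' counting and the sum is safer than either value. All 10 globin genes together took 24.5%, 10.5%, 8.47% and 7.38% of TPM.

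The balance of globin chains differed between the wild-type embryos as well as their total. The adult beta chains Hbb-bt and Hbb-bs formed 7.03% and 5.86% of the beta-like globin TPM in wild-type 1 and 2, and 1.72% and 1.26% in wild-type 3 and 4. The adult alpha chains formed 50.3% and 45.6% of the alpha-like TPM in the first pair, and 33.3% and 34.8% in the second. Shares within a globin class do not depend on how an embryo's total is scaled. The same shares ranged from 1.18% to 5.99% (beta) and 29.9% to 50.5% (alpha) among heterozygous embryos, and from 0.540% to 6.50% and 35.3% to 52.8% among knockout embryos. The wild-type embryos covered a spread of the same order as each of the other genotypes.

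The sequences before these genes are shown because Hbb-y, Hba-x and Hbb-bt were each highest in wild-type 1 and lowest in wild-type 4, while Eef1a1, the most abundant gene outside the globins, ranged less. Each line gives 250 bases before and 50 bases after the start of the gene, from RefSeq on build GRCm38.p6. The count table itself uses GRCm39, and coordinates of the 2 builds are not mixed. Capitals mark 4 motifs on either strand: TATAAA of the TATA box, the letters CCAAT of the box of that name, the letters CACCC bound by Klf factors, and GATAA bound by Gata factors. Of the 20 most abundant genes, 8 had an entry in the promoter table.
Hbb-y (chr7:103853158-103853457, minus strand): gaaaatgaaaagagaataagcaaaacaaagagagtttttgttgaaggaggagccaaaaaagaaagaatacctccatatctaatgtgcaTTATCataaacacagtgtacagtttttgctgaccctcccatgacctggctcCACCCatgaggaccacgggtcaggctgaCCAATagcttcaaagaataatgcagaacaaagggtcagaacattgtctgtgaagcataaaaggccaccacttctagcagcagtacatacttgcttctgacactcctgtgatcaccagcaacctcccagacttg
Hba-x (chr11:32276350-32276649, plus strand): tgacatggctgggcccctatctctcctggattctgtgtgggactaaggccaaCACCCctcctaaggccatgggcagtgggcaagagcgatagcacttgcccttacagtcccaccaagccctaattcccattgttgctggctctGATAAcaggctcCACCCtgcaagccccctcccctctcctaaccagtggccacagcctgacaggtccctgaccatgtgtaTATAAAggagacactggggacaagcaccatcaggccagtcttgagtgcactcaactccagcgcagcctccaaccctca
Hbb-bt (chr7:103813874-103814173, minus strand): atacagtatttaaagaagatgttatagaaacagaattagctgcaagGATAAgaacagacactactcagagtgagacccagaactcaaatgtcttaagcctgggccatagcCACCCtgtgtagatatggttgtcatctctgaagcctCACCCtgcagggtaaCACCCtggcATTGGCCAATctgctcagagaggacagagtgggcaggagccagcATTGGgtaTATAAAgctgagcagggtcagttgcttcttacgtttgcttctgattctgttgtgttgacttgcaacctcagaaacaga
Eef1a1 (chr9:78481675-78481974, minus strand): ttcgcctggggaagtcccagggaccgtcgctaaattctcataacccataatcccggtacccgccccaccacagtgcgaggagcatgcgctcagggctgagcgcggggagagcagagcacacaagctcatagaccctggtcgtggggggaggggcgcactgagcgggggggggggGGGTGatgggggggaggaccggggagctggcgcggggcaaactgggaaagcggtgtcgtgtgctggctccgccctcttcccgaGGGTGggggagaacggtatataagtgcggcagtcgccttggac
TATAAA lay with its first base at -28 from the start in Hba-x and Hbb-bt, and these letters are not in the windows of Hbb-y and Eef1a1. CCAAT was found at -83 in Hbb-y and at -75 in Hbb-bt, and CACCC in each of the 4 windows. Hbb-bt held CCAAT on the minus strand too, at -80 and -36. The window of Hba-a1, another leading globin gene that is not printed, held no TATAAA, and CCAAT at -88. GATAA, the core of the sites that GATA factors bind, was found in the 3 globin windows and not in that of Eef1a1. Among 32851 promoters of this length, 13.6% held TATAAA, 37.4% CCAAT, 57.5% CACCC and 25.4% GATAA, so single matches are frequent. The matches describe letters only.

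Outside the globins, the leading genes served protein synthesis, mitochondria and the cytoskeleton. Eef1a1, which brings aminoacyl-tRNA to the ribosome, stood at 16218, 15044, 13396 and 14683 TPM, a mean of 14835 ± 1162 (SD, n = 4). Among ribosomal proteins Rps14 led with 9091, 7175, 3479 and 5247 TPM, followed by Rps15 (4102 ± 958) and Rpl32 (4069 ± 628). Tuba1a, an alpha-tubulin of young neurons and dividing cells, averaged 4952 ± 780 TPM. H19, an imprinted noncoding RNA of embryonic mesoderm and endoderm, averaged 4060 ± 832 TPM and was highest in wild-type 2. Genes of the mitochondrial chromosome behaved otherwise. COX1, a subunit of cytochrome c oxidase, measured 2922, 7954, 11621 and 9019 TPM, lowest in wild-type 1 and highest in wild-type 3. COX3, ATP6, ATP8, ND1, COX2 and CYTB were lowest in wild-type 1 too. AY036118 and Gm26917, which lie side by side on chromosome 17, averaged 6281 ± 2458 and 4210 ± 1647 TPM.

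**Figure D1:**
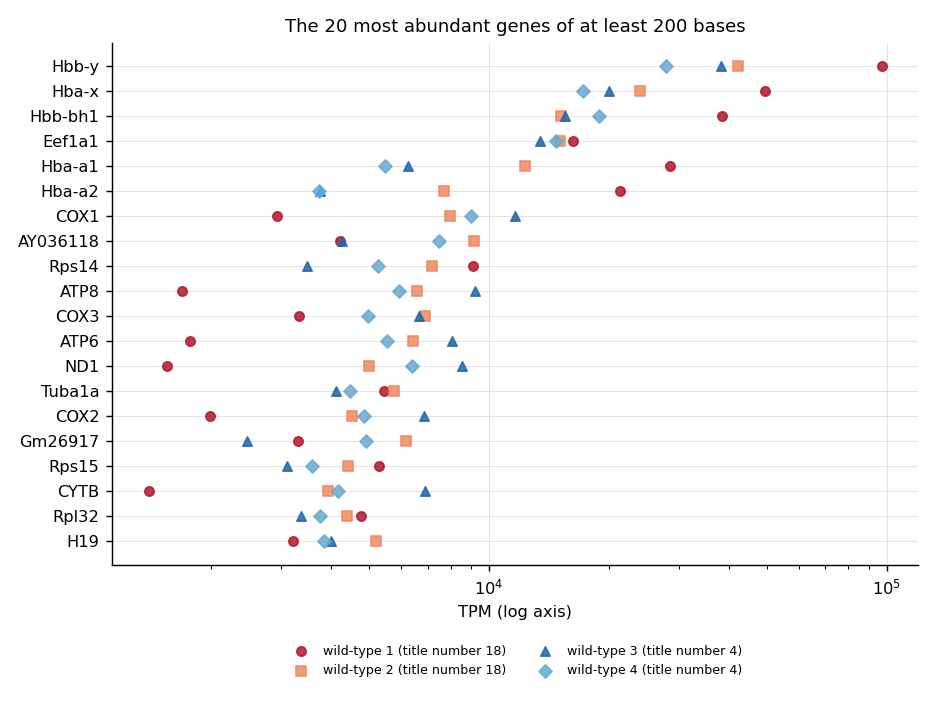
TPM on a log axis of the 20 genes of at least 200 bases with the highest mean in the 4 wild-type embryos, 1 point per embryo. Wild-type 1 lies to the right of the others for Hbb-y, Hba-x, Hbb-bh1, Hba-a1 and Hba-a2 and to the left for the mitochondrial genes, while the 4 points of Eef1a1 fall between 13396 and 16218.

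By family, ribosomal proteins came second in wild-type 1, 2 and 4, and mitochondrial mRNAs in wild-type 3. The 79 cytosolic ribosomal protein genes, all above 1 TPM in each embryo, took 8.53%, 7.46%, 5.94% and 6.79% of TPM. A further 1.28% to 1.64% was assigned to 23 ribosomal protein pseudogenes, a list added after the values were seen. Rps6-ps4 was listed at 3616 ± 381 TPM but Rps6 at 125.9 ± 1.29 TPM, and because reads that match both were shared out by the counting, neither value measures the mRNA of Rps6. The 13 mitochondrial mRNAs took 1.77%, 5.14%, 7.40% and 5.14%, a 4.19-fold range. The 92 nuclear genes of oxidative phosphorylation ranged only from 2.23% to 2.99%, highest in wild-type 1 and lowest in wild-type 3, the reverse order at both ends. Translation factors stayed between 2.89% and 3.14%. Tubulins and actins held 1.90% to 2.22%, chaperones 1.14% to 1.58% and the proteasome 1.07% to 1.13%.

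Smaller families filled in the picture of a growing embryo. The 28 imprinted genes took 0.869% ± 0.166 (SD, n = 4), led by H19, by the growth factor Igf2 at 625, 1299, 1220 and 1124 TPM, and by Nnat, a gene of the early brain, at 956, 1420, 906 and 882 TPM. The 36 cell cycle genes took 0.600% to 0.858%, led by Cdk4 at 1568 ± 71.8 TPM and Pcna at 599 ± 105 TPM. Collagens were still minor at 0.153% ± 0.0443, with Col3a1 at 387 ± 120 TPM ahead of Col1a2 at 238 ± 57.0 TPM. All 39 Hox genes, which set position along the body axis, were detected above 0.1 TPM in at least 1 embryo and 35 of them passed 1 TPM in every embryo. Hoxb9 was the highest at 24.6 ± 6.58 TPM. Replication-dependent histones held only 0.0224% ± 0.00796, and their mRNAs lack the poly(A) tail by which an mRNA kit selects. As a check on stray signal, 1444 of 1471 olfactory and vomeronasal receptor genes stayed below 0.1 TPM in each wild-type embryo, and all 1471 summed to 4.50 ± 0.917 TPM.

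**Figure D2:**
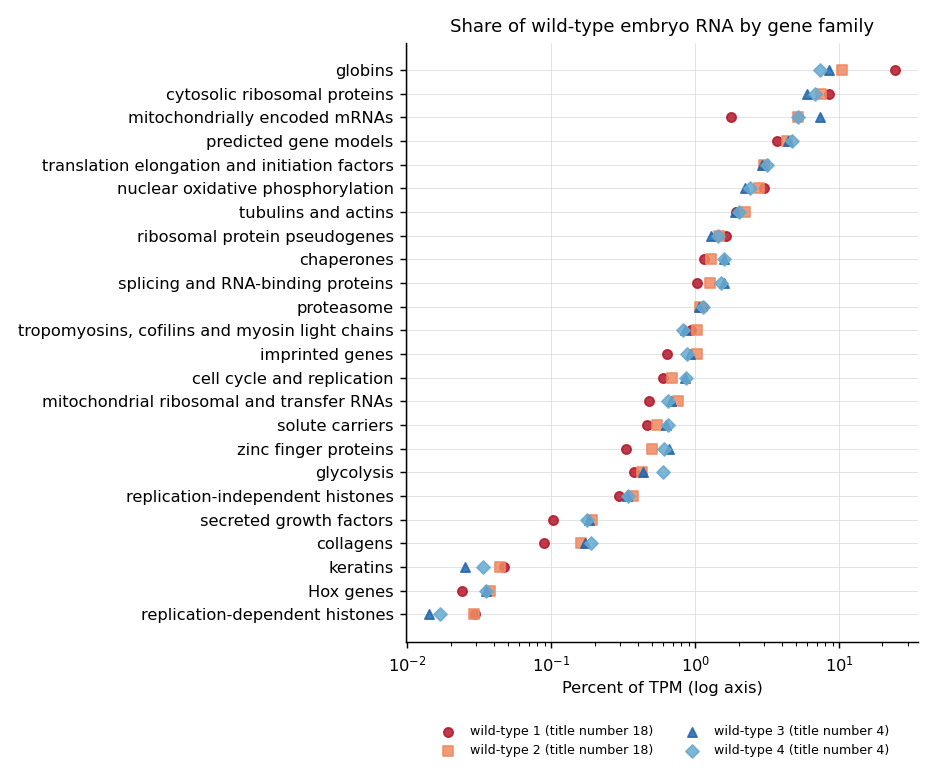
Percent of TPM on a log axis held by each gene family in the 4 wild-type embryos, 1 point per embryo. Globins range from 7.38% to 24.5% and mitochondrial mRNAs from 1.77% to 7.40%, while translation factors lie between 2.89% and 3.14%.

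Marker lists of the organs present at this age differed in how many members reached 1 TPM in every wild-type embryo, down to 5 of 14 for gut and lung endoderm and 3 of 10 for primordial germ cells. Sums depend on which and how many genes a list holds, so they do not rank organs. The list of heart muscle had the highest sum of the solid organs, its 16 markers at 1357, 1570, 1665 and 2109 TPM in wild-type 1 to 4. Actc1, cardiac actin, led at 336, 427, 563 and 693 TPM, followed by the atrial light chain Myl7 at 355 ± 76.2 TPM and the troponin Tnnc1 at 167 ± 18.5 TPM. Neuronal markers summed to 906, 1357, 1081 and 893 TPM, with Tubb3, a neuronal tubulin, at 404 ± 72.2 TPM. Stmn2 and Gap43, genes of growing axons, stood at 140 ± 39.8 and 137 ± 29.1 TPM. Neural tube progenitors summed to 632 ± 144 TPM, led by Fabp7 at 300 ± 85.8 TPM and the intermediate filament gene Nes at 165 ± 56.5 TPM. Endothelium reached 302 ± 63.7 TPM with Egfl7 at 61.0 ± 8.14 TPM, and smooth muscle 279 ± 55.9 TPM with Acta2 at 128 ± 24.2 TPM.

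The lists for mesoderm and endoderm of the trunk gave lower sums. Limb bud markers reached 162 ± 40.6 TPM, with Prrx1, a gene of limb and head mesenchyme, at 46.5 ± 12.8 TPM and Hoxd13, a gene of the later digit region, at 15.2 ± 7.45 TPM. Somite and sclerotome markers summed to 122 ± 28.9 TPM and cartilage precursors to 168 ± 51.1 TPM, with Col2a1, the main cartilage collagen, at 79.2 ± 28.9 TPM. The presomitic mesoderm, which still adds segments at the tail, was at 55.7 ± 18.3 TPM, lowest in wild-type 1 (34.0) and highest in wild-type 4 (77.0). Liver bud markers summed to 231, 291, 108 and 80.5 TPM, with Ttr and Afp, early products of hepatoblasts and of the yolk sac, at 53.8 ± 37.3 and 44.1 ± 26.7 TPM. Melanoblast markers summed to 31.9 ± 6.41 TPM, with Sox10, which is shared with other neural crest cells, at 9.92 ± 2.49 TPM and the pigment genes Pmel and Dct at 6.71 ± 1.38 and 3.41 ± 1.09 TPM. Primordial germ cell markers summed to 23.3 ± 8.17 TPM, of which Kit, which other cells also express, gave 9.75 ± 4.07 TPM. That sum lay within 1 SD of the sum of the placental list, 21.8 ± 8.74 TPM.

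Markers of tissue that should be absent served as a background. Of 34 markers of organs that differentiate later, 17 stayed below 0.1 TPM in each embryo and the list summed to 17.4 ± 1.88 TPM. Its largest member was Ighm, an immunoglobulin heavy chain, at 5.87 ± 2.32 TPM. The placental list summed to 14.4, 14.2, 27.2 and 31.2 TPM. Its leading gene, Hand1 at 15.8 ± 8.25 TPM, is also a gene of heart and body wall, and 5 of its 13 members stayed below 0.1 TPM. Yolk sac markers summed to 152, 175, 71.3 and 47.4 TPM, mostly Ttr and Afp, which the liver list also holds. Whether yolk sac was left on an embryo was not tested.

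**Figure D3:**
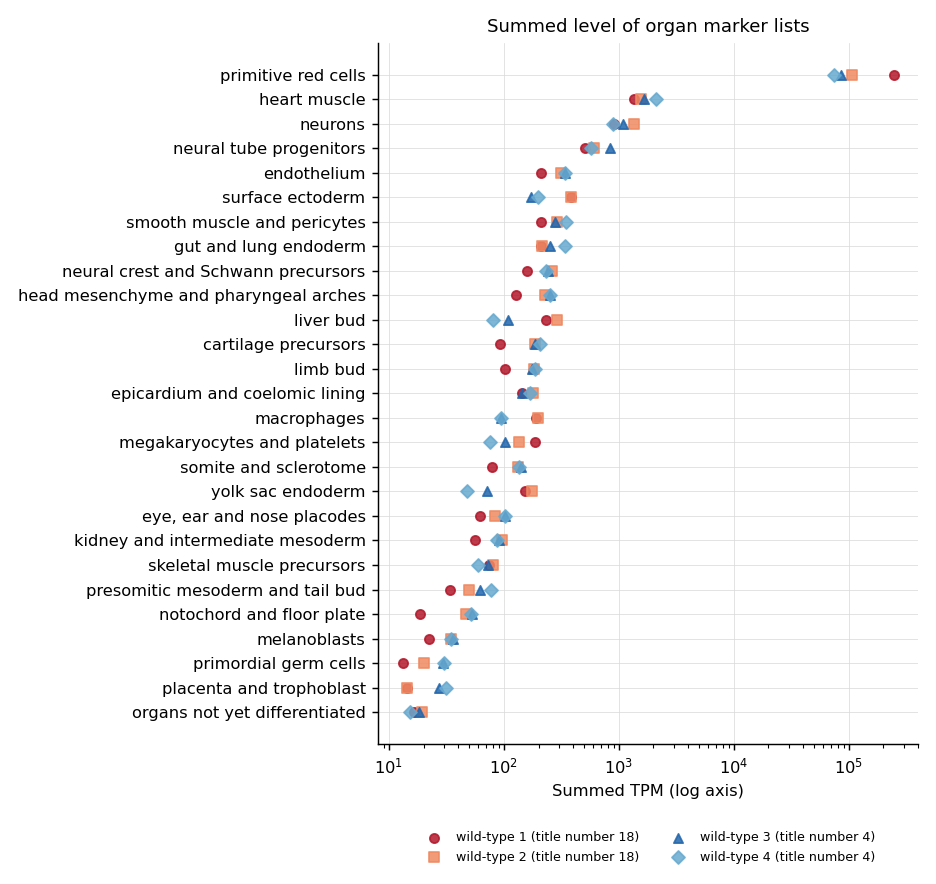
Summed TPM on a log axis of 27 marker lists in the 4 wild-type embryos, 1 point per embryo. Primitive red cells, whose list holds the main globins, stand far above heart muscle at 1357 to 2109, and the lists for placenta, primordial germ cells and organs not yet differentiated lie low, between 13.2 and 31.2.

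How much a gene varied was measured as the SD of log2(TPM + 1) over the 4 wild-type embryos, for 14903 genes of at least 200 bases with a mean of at least 1 TPM. The median gene had an SD of 0.34. Of these genes, 140 (0.939%) had an SD of at least 1, and 661 (4.44%) had an SD under 0.1. The first number was 58 without wild-type 1, 444 without wild-type 2 and 238 without wild-type 4, and the second was 2764, 1042 and 1034 without wild-type 1, 2 and 3. At the edge, Hspg2 fell just inside the first group with an SD of 1.0003 and Fgf15 just outside with 0.997. The genes were ranked by the values themselves, so what follows describes them and tests nothing.

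Among the 20 most variable genes were those that mark sex, globins, liver and skin genes, and a group of early-embryo genes. Xist, the RNA that silences an X chromosome in females, stood at 49.1 TPM in wild-type 2 and at 0.0218, 0.0606 and 0.0323 TPM in wild-type 1, 3 and 4. The Y-linked Ddx3y was listed at 0 in wild-type 2, where a count of 0 allows up to 0.0199 TPM (3 counts), and at 14.5, 40.1 and 29.7 TPM in the others. Kdm5d, Eif2s3y and Uty, also on the Y chromosome, gave the same division. Hbb-bs, an adult beta globin, ran from 2969 TPM in wild-type 1 over 847 in wild-type 2 to 160 and 129 TPM in wild-type 3 and 4. Hbb-bt fell in the same order from 7281 to 470 TPM.

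Several of the variable genes split the embryos cleanly by title number. Igdcc3, an immunoglobulin-type surface protein of the early embryo, stood at 11.9 and 25.9 TPM in wild-type 1 and 2 and at 167 and 171 TPM in wild-type 3 and 4. Lin28a, which encodes an RNA-binding protein that blocks maturation of the let-7 microRNA, measured 2.04 and 3.92 against 27.5 and 31.7 TPM. Prtg, a relative of Igdcc3, measured 0.992 and 2.09 against 14.1 and 14.5 TPM. Miat, a long noncoding RNA, measured 3.11 and 6.79 against 47.1 and 46.1 TPM. Myh6, the atrial myosin heavy chain, measured 3.28 and 14.3 against 53.1 and 61.4 TPM. The reverse held for Penk, which encodes the precursor of enkephalins, at 40.05 and 41.2 against 4.48 and 4.75 TPM. Krt17, a keratin of skin, measured 12.5 and 9.58 against 0.848 and 0.731 TPM, and Alb, albumin, 15.7 and 26.9 against 4.29 and 1.34 TPM. S100a8 and S100a9, calcium-binding proteins of myeloid cells, had their higher values in wild-type 1 and 2 too. Fignl2 measured 3.34 and 11.99 against 38.7 and 36.7 TPM. The pseudogene Cyp4b1-ps2 ran from 29.7 TPM in wild-type 1 to 0.790 TPM in wild-type 4, and the unnamed model Gm38619 from 16.5 to 0.375 TPM. Prap1 stood out in 1 embryo, at 10.5 TPM in wild-type 1 and at most 0.207 TPM in the others.

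**Figure D4:**
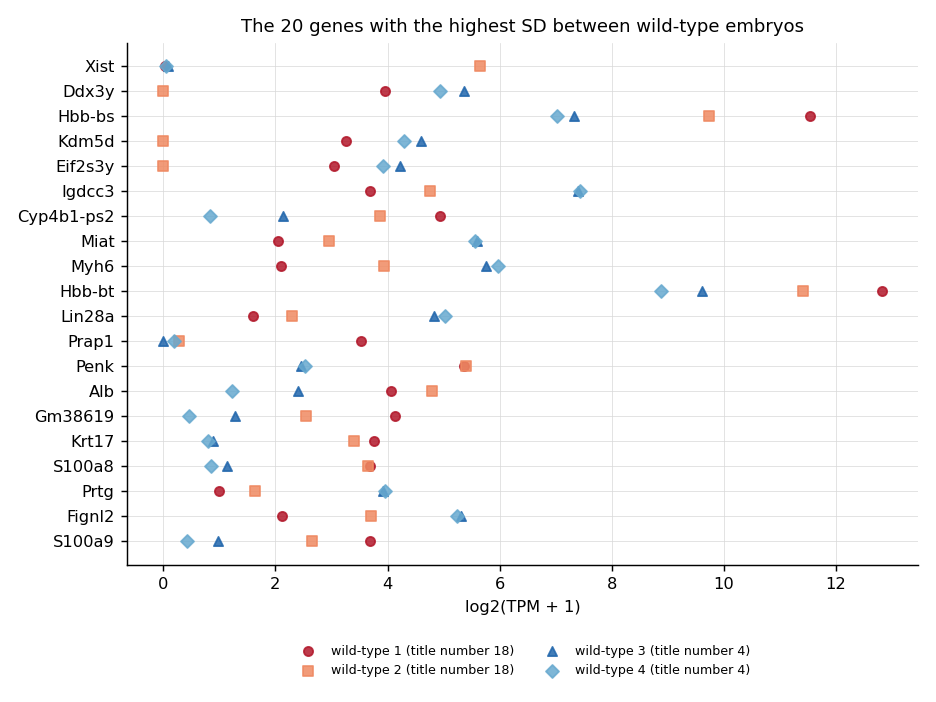
log2(TPM + 1) in each of the 4 wild-type embryos for the 20 genes with the highest SD between them. The points of wild-type 1 and 2 and those of wild-type 3 and 4 form separate pairs for genes such as Igdcc3, Lin28a, Penk and Krt17, whereas Xist and the Y-linked genes set wild-type 2 apart.

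Of the 140 most variable genes, 132 had ranges that did not overlap between the 2 title numbers. That is 94.3%, where the same held for 70.2% of all genes considered, so the background itself was high. By TPM, 33 of the 140 were higher and 99 lower in title number 18, and 97 had their lowest value in wild-type 1. These are 23.6%, 70.7% and 69.3%, where all genes considered gave 13.1%, 57.1% and 75.3%, so a lowest value in wild-type 1 was no more frequent than in the background. The balance of higher and lower depended on the scaling. With counts per kilobase scaled by TMM factors, 113 genes had an SD of at least 1, 62 of them among the 140, and now 85 (75.2%) were higher and 24 (21.2%) lower in title number 18. On that scale 36.7% of all genes were higher and 33.0% lower without overlap, together 69.7%. The 20 most variable genes all kept an SD of at least 1 and ranks between 1 and 46 under that scaling. In embryos that had no part in the ranking, 77 of the 140 (55.0%) lay in the top 10% of SD among heterozygous embryos and 72 (51.4%) among knockout embryos.

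The 10 steadiest genes with a mean of at least 50 TPM had varied roles, and the first in rank was Rps6, whose value does not measure its mRNA. Rnf25, a ubiquitin ligase, stood at 57.4, 57.8, 57.4 and 56.1 TPM, and Ccnb2, a mitotic cyclin, at 147, 150, 152 and 151 TPM. Polr2d, a subunit of RNA polymerase II, averaged 185 ± 2.83 TPM. Vps29 and Snx1, which sort proteins out of endosomes, averaged 62.5 ± 1.19 and 132 ± 3.07 TPM, and Tomm22, part of the import pore of mitochondria, 284 ± 6.57 TPM. Zc3hc1, Slc25a17 and Ostc completed the 10. On the TMM scale the same genes lay 0.45 to 0.53 higher (log2) in title number 18, each with an adjusted p above 0.05 in edgeR, so they are steady as shares of TPM.

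The 2 embryos of number 18 were not alike. On log2(TPM + 1), 704 of 14903 genes differed at least 2-fold between wild-type 1 and 2, and 42 between wild-type 3 and 4. Of the 704, 658 were higher in wild-type 2 and 46 in wild-type 1, and the counts are not adjusted for the low median gene of wild-type 1. Wild-type 2 differed from wild-type 3 in 619 and from wild-type 4 in 462, fewer than from wild-type 1 on this scale. For wild-type 1, whose median gene lies low in TPM, these numbers were 4002 and 3543. The 2 wild-type embryos of number 18 were compared with the 2 of number 4 by edgeR's quasi-likelihood test. Of 20346 genes tested, 1423 (6.99%) were higher and 1312 (6.45%) lower in title number 18 at an adjusted p under 0.05, together 13.4%. The smallest adjusted p was 0.0025, the median size of a called change was 1.05 on the log2 scale, and 1505 of the called genes differed at least 2-fold. With 2 embryos a side the spread rests on 2 residual degrees of freedom. Sex was not balanced: wild-type 2 of number 18 held Xist, and wild-type 1, 3 and 4 held Y-linked transcripts. Leaving out wild-type 3 left 656 calls and leaving out wild-type 4 left 1013, while leaving out wild-type 2 gave 8436 and leaving out wild-type 1 gave 4073. Each of these fits leaves 1 embryo on a side, which is assumed to vary like the other pair. Counts of list members called in these fits, given below, move with these totals and are no result about a list alone. When all 12 embryos shared 1 estimate of the spread, edgeR called 0 genes, with 4047 at an unadjusted p under 0.05 and a smallest adjusted p of 0.148, and DESeq2 on the wild-type embryos called 4215. The labels do not say what the title number stands for, and a comparison of 2 against 2 embryos was not part of the study's stated design. It was chosen with the values of these embryos known, and for the most variable genes its p-values are no evidence independent of their ranking.

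Gene length moved with this comparison. Genes higher in title number 18 had a median length of 1796 bases and those lower 7408.5 bases, against 3412 bases over all genes tested, and the Spearman correlation of length and log2 fold change across genes, which are not independent replicates, was -0.38. The median log2 fold change fell from 0.42 in the shortest of 5 equal groups of genes to -0.40 in the longest. With offsets that remove the trend with length, an alternative chosen after the data were seen, 1239 genes were higher and 1295 lower, and 1633 of the 2735 were called again. Whether RNA quality had a part in this trend was not tested.

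Markers of red cells, macrophages and platelets were among the genes higher in title number 18. In the red cell list, 7 of 16 members (43.8%) were higher and 1 (6.25%) lower, where all genes tested gave 6.99% and 6.45%. These shares of all genes apply to each list below. The median log2 fold change was 1.39, against 0.015 over all genes tested. Hbb-bs, at the TPM given above, was 4.34 ± 0.76 (SE) higher on the log2 scale (adjusted p = 0.0275). Ahsp, which keeps free alpha globin soluble, stood at 636 and 242 against 194 and 161 TPM. Klf1, the transcription factor of adult globin expression, stood at 20.1 and 11.9 against 8.76 and 9.70 TPM. The embryonic chains did not pass, with Hbb-y at 1.65 ± 0.50 (adjusted p = 0.0605) and Hbb-bh1 at 1.22 ± 0.50 (adjusted p = 0.128). Tfrc, the transferrin receptor that brings iron into young red cells and dividing cells, was the member that fell, from 122 and 109 TPM in title number 4 to 30.9 and 49.5 in number 18. Of these calls, Hba-a1 and Tfrc were called again under the length offsets. The median log2 fold change of the list was 0.56 without wild-type 1, the embryo with the most globin RNA. It was 1.92, 1.45 and 1.39 without wild-type 2, 3 and 4.

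Macrophage markers were higher in 9 of 13 cases (69.2%) and lower in none, with a median log2 fold change of 1.38. C1qa, a part of complement made by tissue macrophages, stood at 20.7 and 21.8 against 5.73 and 5.85 TPM, a difference of 2.34 ± 0.25 (adjusted p = 0.00539). C1qb, C1qc and Tyrobp differed by 1.80, 1.80 and 1.93, and Csf1r, the growth factor receptor of the lineage, by 0.99. The count was 9 with the length offsets as well, and it was 6 without wild-type 3 and 7 without wild-type 4. Megakaryocytes and platelets had 4 of 8 markers (50%) higher. Among them were the platelet chemokines Pf4, at 121 and 78.8 against 56.6 and 40.003 TPM, and Ppbp. Under the length offsets 3 were higher. The median log2 fold change of the platelet list was 1.20, and it was 0.59 without wild-type 1. Without wild-type 2, 3 and 4 it was 1.47, 1.11 and 1.25.

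Liver and surface ectoderm markers were higher in title number 18 as well. In the liver bud list 10 of 16 (62.5%) were higher and none lower, with a median of 1.53. Alb differed by 3.32 ± 0.45 (adjusted p = 0.0111). Apoa1, an apolipoprotein, stood at 13.4 and 17.2 against 2.35 and 1.89 TPM, a difference of 3.29 ± 0.27 (adjusted p = 0.00267). Ttr stood at 88.9 and 82.9 against 25.3 and 18.1 TPM. With the length offsets 8 members of the liver bud list were higher and none lower. Of the yolk sac list, which shares Ttr, Afp, Rbp4 and Apob with the liver, 4 of 11 tested members (36.4%) were higher. They were Ttr, Afp, Rbp4 and Apoa4. The median log2 fold change of the yolk sac list was 0.62, and it was -0.059 without wild-type 1. Without wild-type 2, 3 and 4 this list had a median of 0.36, 0.35 and 0.54. Its 1 lower member (9.09%), Lrp2, an endocytic receptor of that epithelium, was lower by 1.80 ± 0.19 (adjusted p = 0.00539). In the surface ectoderm list 5 of 10 (50%) were higher and 1 (10%), Tfap2c, was lower. Of the 5 that were higher, 4 were keratins of the basal skin layer. Krt5 measured 166 and 146 against 29.8 and 37.2 TPM, Krt14 58.7 and 49.6 against 8.09 and 8.999, and Krt15 35.8 and 43.2 against 6.74 and 5.21. The difference of Krt15 was 3.18 ± 0.22 (adjusted p = 0.0025). Cdh1 and Perp, which all surface epithelium carries, did not pass, at -0.10 and 0.52. In this list 4 were higher and 1 lower under the length offsets.

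Neural progenitors went the other way. Of 14 markers 8 (57.1%) were lower in title number 18 and none higher, with a median of -0.77. Sox1 stood at 1.65 and 2.94 against 9.46 and 10.2 TPM, a difference of -1.69 ± 0.21 (adjusted p = 0.00941), and Dll1, a Notch ligand of nascent neurons, differed by -1.07 ± 0.18 (adjusted p = 0.0206). Sox2, Sox3, Pax6, Notch1, Olig2 and Msi1 were lower too. Fabp7 and Nes, the most abundant members, did not pass, at 0.74 and -0.21. Without wild-type 3 the list had 2 lower calls and 1 higher, and without wild-type 4 it had 1 lower. With the length offsets 7 were lower. Of the neuronal list, 4 of 16 (25%) were higher and none lower: Tubb3, Stmn2, Gap43 and Stmn3. Stmn3 showed the largest difference of these, 1.65 ± 0.17 (adjusted p = 0.00539), while Tubb3 and Gap43 were not called with the length offsets. The neuronal list had 2 higher calls without wild-type 3, 1 higher and 1 lower without wild-type 4, 4 of each without wild-type 2, and 7 higher and 1 lower without wild-type 1.

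Muscle and skeleton lists were mixed. In the heart list 4 of 16 (25%) were lower and none higher. The lower ones were the long genes of the sarcomere and its calcium release: Myh6, Myh7, Ttn and Ryr2. Myh7, the ventricular myosin of the embryo, measured 6.66 and 14.8 against 49.3 and 56.0 TPM, a difference of -1.91 ± 0.23 (adjusted p = 0.00842). The short heart genes Actc1, Myl7 and Tnnt2 did not pass, at -0.27, 0.09 and -0.01. With the length offsets 6 heart genes were lower and 1 higher. In skeletal muscle precursors 3 of 10 (30%) were higher, although the median over the list was -0.18. They were the regulators Myod1 and Myog and the fusion gene Mymk. Myod1 stood at 6.38 and 6.06 against 1.46 and 0.913 TPM, and Myog at 45.2 and 39.6 against 17.8 and 14.2 TPM. In the somite list 2 of 10 (20%), Pax1 and Meox2, were higher and 1 (10%), Pax3, was lower. Pax1, a gene of the sclerotome, was higher by 1.41 ± 0.21 (adjusted p = 0.014). Pax3, a gene of the muscle-forming part of the somite, was lower by 1.25 on the same scale (-1.25 ± 0.18, adjusted p = 0.013). Of 7 cartilage precursor markers tested 3 (42.9%) were lower and none higher. They were Sox5 and Sox6, transcription factors of early cartilage, and the matrix gene Matn3 (-1.43 ± 0.29, adjusted p = 0.0254). Under the length offsets 1 was lower, without wild-type 3 none and without wild-type 4, 1, whereas 2 were higher and 3 lower without wild-type 1. With the same offsets 2 skeletal muscle genes were higher and 1 lower, and 1 somite gene was higher and 2 lower. Without wild-type 2 the heart list had 6 calls each way, and the skeletal muscle list 3. In the tail bud list edgeR called 0 of 12, with 4 at an unadjusted p under 0.05, and DESeq2 called 2. The median was -1.06, and 2 were lower with the length offsets.

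**Figure D5:**
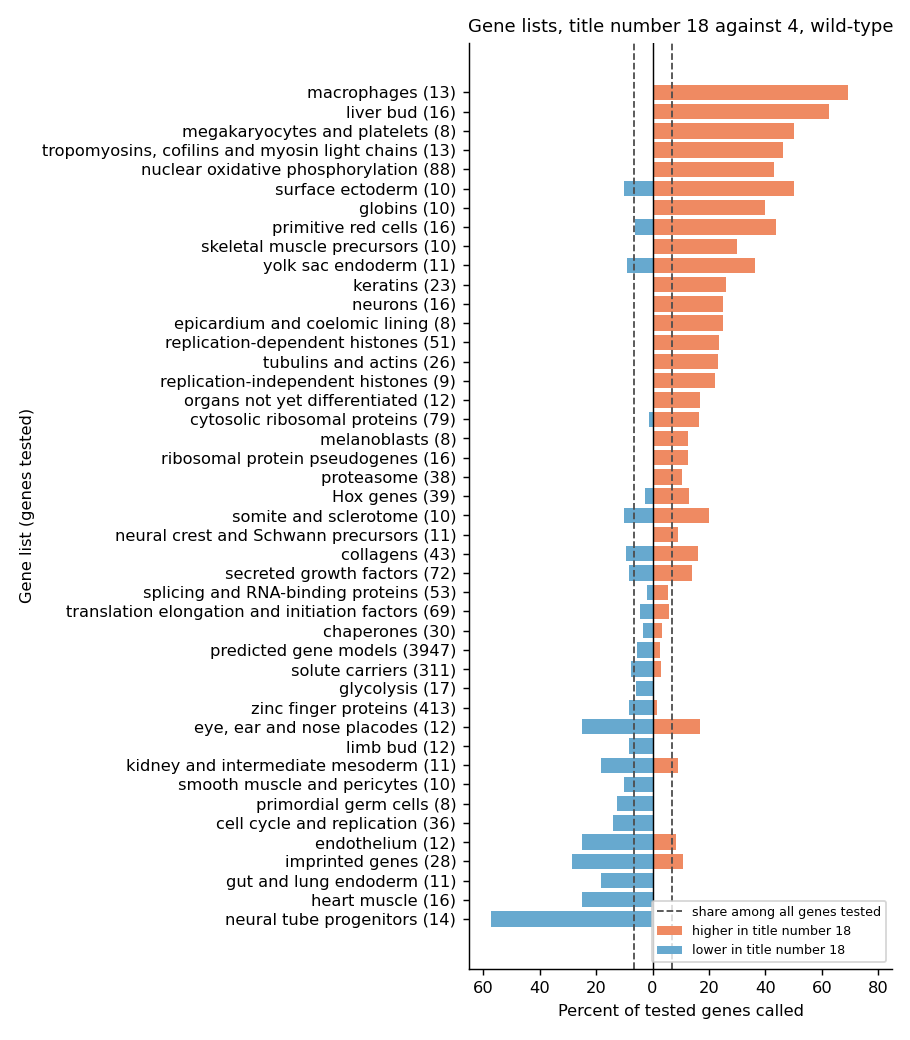
Percent of tested genes per drawn list called higher (right) or lower (left) in wild-type embryos of title number 18 against number 4. Dashed lines at 6.99% and 6.45% give the share among all genes tested. Lists without calls or with few genes tested are not drawn, among them cartilage precursors, with 3 of 7 lower. Macrophages, liver bud, megakaryocytes and surface ectoderm extend farthest to the right and neural tube progenitors farthest to the left.

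Lin28a and Lin28b, regulators of developmental timing, were lower in title number 18. Lin28a fell by 2.91 on the log2 scale (-2.91 ± 0.22, adjusted p = 0.00259) and its paralog Lin28b, at 2.14 and 4.22 against 21.9 and 20.1 TPM, by 2.33 (-2.33 ± 0.21, adjusted p = 0.00347). Trim71, a long-known target of let-7, measured 0.472 and 1.504 against 9.28 and 8.69 TPM. Trim71, Hmga2 and Igf2bp1 were looked up after the values of Lin28a and Igdcc3 were seen, and Lin28b was chosen after its values were seen. Lin28a, Lin28b and Trim71 ranked 11, 25 and 26 by SD over the same 4 embryos. The p-values of such genes are therefore no evidence independent of that ranking. Igf2bp1, an RNA-binding protein, differed by -0.90 ± 0.23 (adjusted p = 0.0405), and Hmga2, a chromatin protein with known let-7 sites, at 177, 410, 539 and 495 TPM, did not pass (-0.44 ± 0.24, adjusted p = 0.237). The sequences are shown so that the pairing of seed and site can be read directly. The mature microRNA, from RefSeq on GRCm38.p6 (chromosome 13, minus strand), has its seed in capitals, and below it stand the first CTACCTC match of each gene's longest 3′ UTR in GENCODE on GRCm38, with the match in capitals.
mmu-let-7a-5p: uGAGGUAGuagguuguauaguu
Lin28a: gcacagcctgttgaaCTACCTCattttt
Lin28b: acccgggcgggaagtCTACCTCatgcaa
Trim71: aacattgcctaagtcCTACCTCagctta
Igdcc3: tgtgactctcagcacCTACCTCagccgg
Prtg: ccctctgctgaatagCTACCTCagtttg
Hmga2: gccgacattcaatttCTACCTCagcatc
Lin28b, Trim71 and Hmga2 held 4 such matches each, and Lin28a, Igdcc3 and Prtg 2 each. Igf2bp1 and Fignl2, which are not printed, held 4 and 3, and Myh6, which was lower in title number 18 too, held 0. Over all genes tested that had a 3′ UTR, 10.3% held CTACCTC, against 19.1% of those lower and 6.02% of those higher in title number 18. The 3′ UTRs of the lower genes were longer, with a median of 2348 bases against 1152 over all and 534.5 in the higher genes. Per 10 kilobases of 3′ UTR the matches numbered 0.853 in the lower genes, 0.768 in the higher and 0.731 in all. Mature let-7 itself was not measured by these libraries.

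Housekeeping families held many of the genes higher in title number 18. Of 88 nuclear genes of oxidative phosphorylation tested, 38 (43.2%) were higher and none lower, with a median of 0.79. Cox4i1, a subunit of cytochrome c oxidase, stood at 2156 and 1624 against 1023 and 1265 TPM, and Atp5f1e, of the ATP synthase, at 1424 and 1138 against 554 and 665 TPM. Of 79 ribosomal proteins 13 (16.5%) were higher and 1 (1.27%), Rps12, was lower. Of 51 replication-dependent histones tested 12 (23.5%) were higher, among them H2bc27 at 61.1 and 74.9 against 24.4 and 22.5 TPM. With the length offsets 7 of the oxidative phosphorylation genes and 3 of the histones were higher, and 2 ribosomal proteins were higher and 5 lower. Without wild-type 3 the higher calls numbered 2 for oxidative phosphorylation, 0 for ribosomal proteins and 3 for histones, without wild-type 4 they numbered 14, 6 and 7, and without wild-type 2 they numbered 83, 68 and 23. Those counts moved with the totals of the same fits over all genes. Of the 13 mitochondrial mRNAs edgeR called 0, with 3 at an unadjusted p under 0.05, and DESeq2 called 2.

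Families of regulators and matrix genes held calls in both directions, and several of their shares were close to the 6.99% higher and 6.45% lower of all genes tested. Of 28 imprinted genes 3 (10.7%) were higher and 8 (28.6%) lower. Cdkn1c, a cell cycle inhibitor, stood at 400 and 461 against 234 and 282 TPM, while Igf2r, the receptor that clears Igf2, stood at 16.8 and 38.9 against 90.4 and 95.7 TPM. Peg10, Meg3, Plagl1, Zim1, Rtl1, Impact and Kcnq1ot1 were lower as well, although Kcnq1ot1 lies antisense to Kcnq1 and counting without strand cannot separate them. Of 39 Hox genes 5 (12.8%) were higher, 4 of them from the Hoxc cluster: Hoxc5, Hoxc8, Hoxc9 and Hoxc10, with Hoxa7. Hoxb1, a gene of the hindbrain and of early trunk mesoderm, was the only lower one (2.56%), at 0.377 and 0.726 against 3.03 and 3.84 TPM. Of 72 secreted growth factors tested, 10 (13.9%) were higher, 8 of these being Wnt genes, and 6 (8.33%) lower, which were Shh, Fgf4, Fgf15, Vegfa and the Wnt genes Wnt16 and Wnt8b. Of 43 collagens, 7 (16.3%) were higher, including Col9a3 and Col9a2 of cartilage and Col17a1 of skin, and 4 (9.30%) lower, including Col4a5 and Col4a6 of basement membranes. Of 413 zinc finger protein genes, 6 (1.45%) were higher and 34 (8.23%) lower. With the length offsets 11 collagens were higher and 2 lower, 4 Hox genes higher and 3 lower, and 12 zinc finger genes higher and 25 lower. Without wild-type 3 the counts were 0 and 6 for imprinted genes, 1 and 1 for Hox, 3 and 4 for growth factors, 4 and 1 for collagens and 0 and 4 for zinc fingers. Without wild-type 4 they were 1 and 8, 1 and 1, 4 and 1, 5 and 1, and 1 and 13. Without wild-type 2 they were 7 and 16, 7 and 6, 15 and 13, 7 and 17, and 31 and 121, and without wild-type 1 they were 4 and 10, 10 and 2, 16 and 8, 11 and 6, and 14 and 58.

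The 5 genes with the largest fitted change in each direction had few or no counts on 1 side, so bounds stand in for the fitted values, and their order by true size is not known. Apoa4, an apolipoprotein of yolk sac, liver and gut, was at 0.420 and 0.541 TPM in title number 18 and had 0 counts in both embryos of number 4, which makes it at least 6.41-fold higher when 3 counts per library are taken as the limit. Mir144, a red cell microRNA whose listed value comes from reads over its hairpin, was at 26.6 and 12.7 TPM against 0 counts, at least 10.4-fold higher. Gm33336, Cst7 and LOC115489511 were at least 6.20, 4.56 and 4.50-fold higher by the same bound. In the other direction Gm57789 was at least 21.6-fold lower, 6430590A07Rik 12.9-fold, Chrna6, a nicotinic receptor subunit, 8.76-fold and Gm39881 8.34-fold. Gm24916 stood at 0.170 and 0 against 7.85 and 14.9 TPM.

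Embryos of the same title numbers existed in the other genotypes, 1 of each number per genotype, which allows values but no test. In the heterozygous pair, 95.8% of the 1423 genes were higher in the embryo of number 18 and 97.9% of the 1312 genes were lower, where 10173 of the 20346 genes tested were higher. In the knockout pair the shares were 72.0% and 64.3%, where 51.2% of all were higher. The heterozygous pair thus moved with the wild-type embryos in nearly all of these genes and the knockout pair in most.

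Few genes were called between the wild-type embryos and the mean of the other genotypes, which does not show that few differ. That mean puts heterozygous and knockout embryos together. Mfsd12 itself, at chromosome 10 positions 81193325 to 81202059 on GRCm39, measured 5.01, 9.05, 6.18 and 6.05 TPM in wild-type 1 to 4, a mean of 6.57 ± 1.73 (SD, n = 4), compared with 3.26 ± 1.53 in heterozygous and 1.75 ± 0.400 in knockout embryos. All 4 wild-type values lay above the highest of the other 8 embryos, 4.87 TPM. Against the mean of the other genotypes it was 1.52 ± 0.27 (SE) higher on the log2 scale, the smallest p of the comparison (unadjusted p = 6.68e-05, adjusted p = 0.971 in edgeR). Sex and title number were not balanced in this comparison. All heterozygous embryos held Xist (52.4 to 186 TPM) with Ddx3y at 0.0147 TPM or less. Wild-type 1, 3 and 4 and knockout 2, 3 and 4 held Ddx3y. Title numbers 14, 15 and 4.1b had no wild-type embryo, and sex was not in the model. Of 20771 genes tested 0 (0%) were called by edgeR, 553 had an unadjusted p under 0.05, and DESeq2 called 3, which were Mfsd12, Chac1 and Gm23804. Chac1, which breaks down glutathione, stood at 0.346 to 0.943 TPM in wild-type, at 0.498 to 1.82 TPM in heterozygous and at 6.46 to 52.7 TPM in knockout embryos. The wild-type and heterozygous ranges overlapped and the knockout embryos lay above both. For wild-type against the mean of the other genotypes DESeq2 gave a log2 fold change of -2.84 ± 0.51 (adjusted p = 0.000497). Tektip1 overlaps the end of Mfsd12 on the other strand, and reads of the 2 genes were not separated by strand.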

How the data were processed

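Per the file headers, the authors made the deposited table of estimated counts (expected counts, not normalized) with featureCounts 2.0.6, using RefSeq gene models of build GRCm39. Mates were counted separately, reads with several matches added fractions, and strand was not used. The submitters' processing notes name DRAGEN without a role, and the aligner is not given in the sources used here. The deposited table also gives a gene length. No row held spike-in RNA.

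TPM was computed from counts and length over 41079 genes with Python 3.11.15. Variation was the SD of log2(TPM + 1). For tests, counts were rounded, filtered with filterByExpr, scaled by TMM factors and fitted with edgeR 4.0.16 (R 4.3.3, robust quasi-likelihood, two-sided, Benjamini-Hochberg, threshold 0.05). Standard errors were taken as the fold change divided by the root of F. The title comparison used the 4 wild-type embryos, and wild-type was compared with the mean of the other genotypes in all 12. The title test was also run on simulated counts with known changes, and that outcome is not used here. Each embryo is a separate animal, and replicate numbers follow deposition order.

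The embryos, the 27 organ lists, the gene families and the title comparison were chosen with earlier results of these data known. The pseudogene list, Lin28b, Trim71, Hmga2, Igf2bp1, Rps6-ps4, Chac1, Gm23804, S100g and Tektip1 were chosen after their values were seen, and the linker histones H1f0 and H1f10 were then taken out of the replication-dependent list. Genes are named by rank: the 20 most abundant, the 20 most and 10 least variable, the 5 largest changes each way, the leading members of lists, and Mfsd12 with sex markers. Called members were named as examples of their lists. Alternatives were DESeq2 1.42.0, other scalings, filters, pseudocounts and length offsets, and leaving out each embryo.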

Additional observations from a re-analysis of the deposited data

Results flagged for a closer look

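The 4 wild-type embryos were screened for a value set apart from the other 3 by a gap above Dixon's critical value for 4 samples, over 104 family sums, list sums and single genes in TPM. Of the 104, 8 were set apart, 7 of them by wild-type 1. Chance sets apart about 1 in 20 groups, but that rate cannot be read against this count, since the most variable genes were chosen for standing apart and the lists share members. Wild-type 1 was lowest in the sums for Hox genes (238 TPM, others 353 to 375), melanoblasts (22.3 TPM, others 34.5 to 36.0), somite and sclerotome (79.1 TPM, others 132 to 142), limb bud (101 TPM, others 176 to 187) and cartilage precursors (92.3 TPM, others 188 to 205). These 5 sums lie low in the embryo whose median gene also lies low in TPM. Wild-type 1 was highest in Hbb-bh1 (38454 TPM, others 15119 to 18937) and in Prap1 (10.5 TPM, others 0 to 0.207). Wild-type 2 was highest in Xist (49.1 TPM, others 0.0218 to 0.0606), and it is the embryo without counts of Ddx3y, Kdm5d, Eif2s3y and Uty.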

How the results depend on the processing

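Without division by length, globins fell to 3.88% of the total, ribosomal proteins to 3.16% and mitochondrial mRNAs to 1.91%, and 1068 genes made up 50% of it where TPM gave 285. Without globin genes in the total, ribosomal proteins took 8.37%, and 459 genes made up 50%. The number of genes at 1 TPM moved by less than 1.5 times under every alternative run. The 140 most variable genes became 485 with a pseudocount of 0.1 and 37 with one of 5, and 58 to 444 with 1 embryo left out. The 661 least variable became 1898 with a pseudocount of 5, 16652 without a filter on level, 1421 with TMM-scaled counts, 1146 without globins and 830 to 2764 with 1 embryo left out. Leaving out 1 embryo changed the globin share to between 8.78% and 14.5%. The 2735 calls between title numbers became 4215 with DESeq2, 5152 without a count filter, 0 with all 12 embryos in the fit, and 656 to 8436 with 1 embryo left out. With upper-quartile scaling 1670 genes were higher and 1124 lower. No named fold change that was called in the main fit reversed its sign, and genes not called there were not counted as reversed. Among all 2735 calls, 3 reversed with the length offsets. Against the other genotypes edgeR called 0 genes, DESeq2 3 and edgeR with the title number as a block 1, S100g (-6.76 ± 0.56, adjusted p = 0.00199), and 0 with any of the 12 embryos left out. S100g stood at 0.449, 0.268, 0 and 0 TPM in wild-type 1 to 4. It was high in single embryos, at 180 TPM in knockout 3, 13.5 in heterozygous 1 and 5.25 in knockout 4. The remaining heterozygous and knockout embryos held 0.168 to 0.788 TPM. The replicate numbers follow deposition order and were not used to pair embryos. For genes at 0 counts, 3 counts stood for the limit of detection.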
